A study of Mus musculus with 8 samples.

Results

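Interferon response genes are the genes that cells switch on when interferon reports an infection. The 44 members described here were chosen by symbol, and all 44 were found in a RefSeq gene table of the mouse assembly GRCm38.p6 (mm10). They stand beside the 21887 protein-coding genes of that table outside the mitochondrial chromosome. Of the members, 43 are protein-coding there, and Mx2 is listed as a transcribed pseudogene.

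Open chromatin was profiled by ATAC-seq, in which a transposase cuts accessible DNA, in 4 groups of mouse embryonic stem cells with 2 replicates each. Cells labelled Ubc9-depleted are of the v6.5 line and had received doxycycline for 72 hours to shut off Ubc9 (a TET-OFF design), the enzyme that conjugates SUMO to proteins. Their control, labelled Ubc9-control, is isogenic and also of v6.5. For it the labels name no doxycycline, so the drug and the depletion cannot be told apart. Cells labelled H1 triple-KO lack 3 linker histones (H1.2-/-H1.3-/-H1.4-/-) and were compared with H1 WT cells, both taken from an earlier publication. All groups spent 4 passages in 2i/LIF medium. The labels do not say whether a group is 1 clone. The authors deposited 1 list of accessible regions per group, made from both replicates. A replicate check and a test were therefore not possible for any difference reported here. Shares carry exact (Clopper-Pearson) 95% binomial intervals that cover counting error only, and neighbouring members that share a region are not independent.

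Interferons bind receptors at the cell surface, which activate JAK kinases. Type I interferons lead to a complex that includes STAT2 and IRF9 and binds the interferon-stimulated response element (ISRE), while interferon gamma acts through the gamma-activated site (GAS). The induced proteins sense foreign nucleic acid, block viral replication, destroy vacuoles that hold pathogens and present antigen. Pluripotent stem cells are known to respond weakly to interferon and to express a subset of these genes without it.

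The lists held between 46847 and 58039 regions. Median widths were 367 bp in control, 431 bp in depleted, 273 bp in H1 wild-type and 259 bp in H1 triple-knockout cells. In the same order the regions covered 21.7, 26.8, 17.5 and 17.3 Mb. Window hits and overlaps were not adjusted for these differences. A gene-end region is a region within 1000 bp of either annotated end of a gene, and a partner is a region of the other list of the same pair that overlaps by at least 1 bp. Each region has a score set by the authors' peak caller, which starts at 50 and ranks regions within a list. Scores of different lists are set side by side below without reading a change from them. Stem cell marker genes had a gene-end region in every list at 7 of 10 genes, among them Nanog, Sox2 and Zfp42, while Pou5f1, Esrrb and Lin28a had none in any list. Of 8 fibroblast markers, Col1a1 had one in the Ubc9 lists only and Col1a2 in the H1 lists only. Of 8 blood cell markers, Spi1 had one in every list and Cd68 in H1 wild-type cells only. Over all genes, 43% had one in every list. Of the 3 deleted histone genes, H1f2 was covered by open regions over 725 bp in H1 wild-type and 0 bp in triple-knockout cells, H1f3 over 242 and 0 bp, and H1f4 over 38 and 20 bp.

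The promoters that lost their region after Ubc9 depletion are shown first, because their letters can be set against the ISRE. They are RefSeq sequences of GRCm38.p6, written 5′ to 3′ along the gene, from 250 bases before to 50 after the listed start. Capitals mark each match to a core of the ISRE (GAAA, any 2 bases, GAAA) on either strand, with overlapping matches merged. Irgm1 lies at chr11:48871371-48871670, minus strand; Irgm2 at chr11:58214727-58215026, plus strand; Ifit2 at chr19:34550444-34550743, plus strand; Ifitm1 at chr7:140967826-140968125, plus strand; and Xaf1 at chr11:72301379-72301678, plus strand.
Irgm1: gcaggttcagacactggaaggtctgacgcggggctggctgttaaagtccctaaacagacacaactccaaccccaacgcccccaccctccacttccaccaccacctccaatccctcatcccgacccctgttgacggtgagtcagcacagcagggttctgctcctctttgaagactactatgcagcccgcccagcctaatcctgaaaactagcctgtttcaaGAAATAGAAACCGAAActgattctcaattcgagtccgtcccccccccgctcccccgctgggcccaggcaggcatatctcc
Irgm2: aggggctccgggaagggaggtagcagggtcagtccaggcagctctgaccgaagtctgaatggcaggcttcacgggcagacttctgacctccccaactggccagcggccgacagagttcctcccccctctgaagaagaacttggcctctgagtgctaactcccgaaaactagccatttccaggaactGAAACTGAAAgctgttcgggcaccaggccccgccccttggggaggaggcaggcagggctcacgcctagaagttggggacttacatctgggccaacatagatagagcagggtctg
Ifit2: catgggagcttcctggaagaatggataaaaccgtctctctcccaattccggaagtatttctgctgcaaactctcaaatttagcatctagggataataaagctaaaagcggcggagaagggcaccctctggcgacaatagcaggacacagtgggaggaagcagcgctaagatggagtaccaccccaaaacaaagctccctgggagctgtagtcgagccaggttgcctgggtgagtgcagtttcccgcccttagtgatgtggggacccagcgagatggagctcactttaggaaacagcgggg
Ifitm1: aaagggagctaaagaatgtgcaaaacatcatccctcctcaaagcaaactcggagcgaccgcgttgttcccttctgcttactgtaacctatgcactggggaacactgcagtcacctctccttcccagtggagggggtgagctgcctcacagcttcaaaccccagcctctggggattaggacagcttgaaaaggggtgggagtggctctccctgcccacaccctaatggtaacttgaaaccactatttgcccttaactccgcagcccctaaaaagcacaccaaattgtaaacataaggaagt
Xaf1: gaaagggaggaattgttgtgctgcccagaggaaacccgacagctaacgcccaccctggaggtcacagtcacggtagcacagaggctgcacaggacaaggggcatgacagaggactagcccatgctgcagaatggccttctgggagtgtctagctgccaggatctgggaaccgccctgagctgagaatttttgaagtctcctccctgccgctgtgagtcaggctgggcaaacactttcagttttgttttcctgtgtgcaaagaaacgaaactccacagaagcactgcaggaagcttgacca
Irgm1 has 2 overlapping matches, which begin 30 and 24 bases before the start, and Irgm2 has 1, which begins 64 bases before it. In the other 3 windows these letters were not found.

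Shorter stretches around the matches of 4 other members are set beside them. Isg15 (chr4:156200855-156200916, minus strand) has 3 overlapping matches and no region over its promoter in any list. Stat2 (chr10:128270256-128270305, plus strand), B2m (chr2:122147528-122147577, plus strand) and Eif2ak2 (chr17:78882525-78882574, minus strand) each have 1 match and a region over the promoter in all 4 lists.
Isg15: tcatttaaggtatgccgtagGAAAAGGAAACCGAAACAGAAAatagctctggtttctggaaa
Stat2: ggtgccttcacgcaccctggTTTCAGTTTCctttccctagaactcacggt
B2m: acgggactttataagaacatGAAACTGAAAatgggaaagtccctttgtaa
Eif2ak2: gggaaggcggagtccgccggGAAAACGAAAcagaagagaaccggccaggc
Promoter sequences were found for 36 of the 44 members. Usp18, Oas2, Zbp1, Dhx58, Ifi27, Parp14, Rtp4 and Mx2 had no entry. Of the 44 promoters of these 36 genes, 19 (43.2%) held the ISRE letters, against 1131 of all 32851 promoters of that length (3.44%). The GAS letters TTCNNNGAA, also read on both strands, were in 12 of the 44 (27.3%), against 8.3% of all promoters. In 2 member promoters the matches of these motifs share a base.

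A gene-end region was found at 24 of the 44 members in Ubc9 control cells (54.5%, against 53.1% of all genes) and at 17 in Ubc9-depleted cells (38.6%, against 54.4%). In both H1 lists it was found at 21 (47.7%), against 51.4% of all genes in triple-knockout and 51.7% in wild-type cells. Members thus stood near all genes in 3 lists and lower in the depleted one. All 4 lists had a gene-end region at 13 members (29.5%), against 43% of all genes. No list had one at 16 members (36.4%), against 37.8% of all genes. Both control lists and neither perturbed list had one at 5 members, namely Isg20, Usp18, Irgm1, Aim2 and Ifitm1 (11.4%), against 0.658% of all genes. The reverse, a region in both perturbed lists only, held for Oas1a, Psmb8 and Adar (6.82%), against 0.676%. At Oas1a, however, the regions of the perturbed lists lay at opposite ends of the gene. The 2 pairs share no sample, and which members fell in these sets depended on window and score, as given below. Ifit2 and Xaf1 had a region in every list but that of Ubc9-depleted cells (4.55%, against 2.01% of all genes). The remaining 5 were Irf7 and Ifi27 with a region in Ubc9 control cells only, Gbp2 in the H1 lists only, Irgm2 in 1 list of each pair, and Zbp1 in every list but that of H1 wild-type cells.

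**Figure D1:**
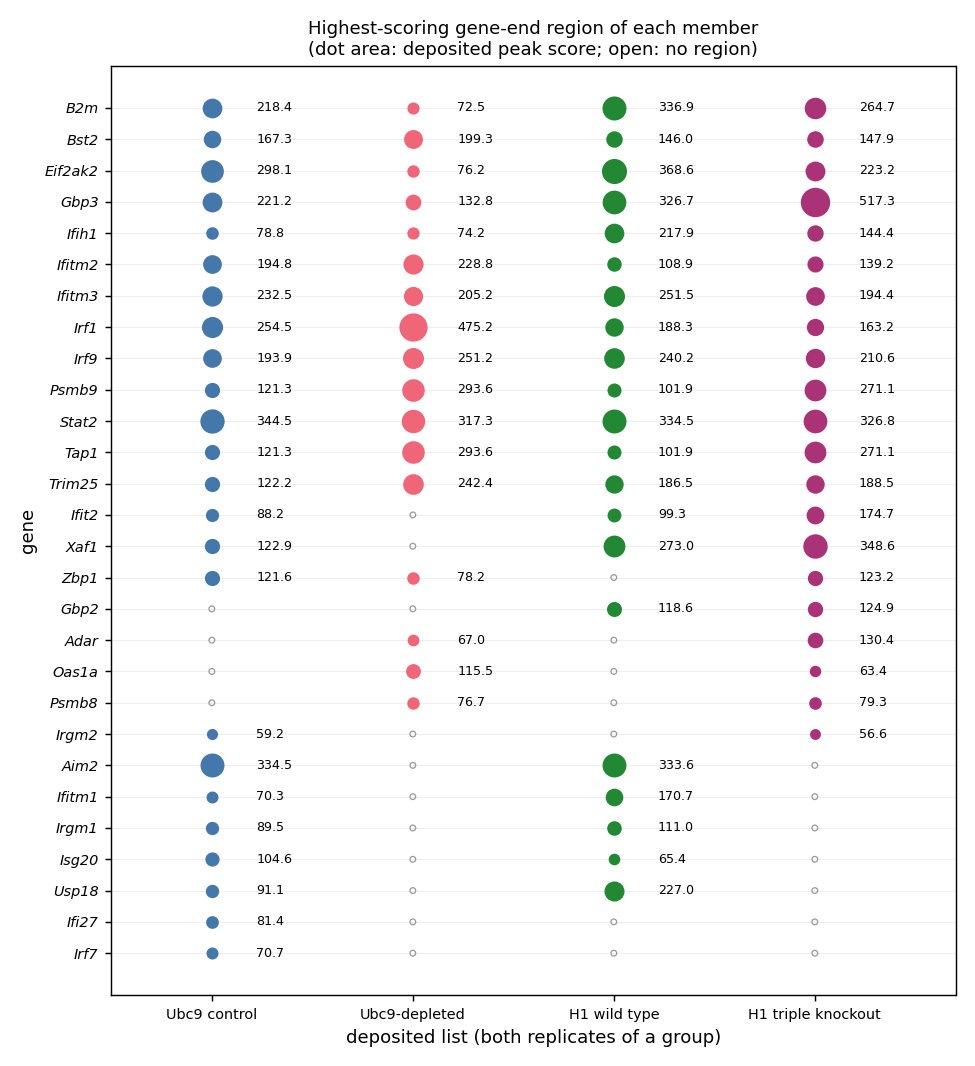
Highest-scoring gene-end region of the 28 members that have one in any list; columns are the 4 deposited lists, rows the genes, and the dot area and the printed number the deposited peak score. Open dots mark lists with no region: 13 genes are filled in all columns, and the Ubc9-depleted column is empty for 10 genes that are filled in the Ubc9 control column.

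Setting Ubc9-depleted beside control cells addresses how chromatin changes when SUMO conjugation is lost. Of 24 members with a gene-end region in control cells, 10 had none in depleted cells (41.7%, interval 22.1 to 63.4). Over all genes this held for 880 of 11618 (7.57%). In the other direction, 3 of the 17 members with a region in depleted cells had none in control cells (17.6%, 3.8 to 43.4), against 9.73% of all genes. The 10 members were spread over the roles of the list rather than falling in a single family. They were chosen with earlier results of these lists known, so the count describes them and supports nothing further.

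The GTPases and the Ifit family held 3 of the 10. Irgm1, a GTPase that guards vacuoles and organelle membranes, had a region of score 89.5 over its start in control cells (chr11:48871372-48871619) and 111 in H1 wild-type cells (chr11:48871373-48871633). These regions begin 1 bp apart, and neither perturbed list had any region there. Irgm2, a second GTPase of that family on the same chromosome, had a region of 59.2 over its start in control cells and of 56.6 in H1 triple-knockout cells, near the lowest scores of those lists. Its neighbour Igtp had no gene-end region in any list. Ifit2, whose product binds viral RNA and restrains translation, had a region over its start of 88.2 in control, 99.3 in H1 wild-type and 175 in H1 triple-knockout cells. In the depleted list the start of Ifit2 was empty, and Ifit1 and Ifit3 had no gene-end region in any list. The family lies on chromosome 19, where the Ubc9 pair had 549 regions in depleted cells only and 277 in control cells only, and the part of this in the Ifit2 difference was not tested.

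The Isg15 system was represented by Usp18, the protease that takes Isg15 off proteins and dampens the interferon receptor. No strand was listed for Usp18, so its start and end were not told apart. A region over its lower-coordinate end at chr6:121245678-121246013 scored 91.1 in control cells and 227 in H1 wild-type cells. Both perturbed lists lacked it, and the nearest triple-knockout region lay 1150 bp beyond the gene. Usp18 lies in the part of chromosome 6 beyond 80 Mb where the H1 pair had, in sum, 311 regions in triple-knockout cells only and 1005 in wild-type cells only, and the part of that balance in the Usp18 difference was not tested. In the Ubc9 pair the same stretch had 557 and 751. Within 50 kb of the gene, control cells had 4 regions, 3 of them without a partner, and depleted cells had 1. Near other genes, 41.4% of control regions within 50 kb had no partner.

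Of the membrane factors, which block virus entry or release, Ifitm1 had a region over its listed promoter of 70.3 in control and 171 in H1 wild-type cells, and none in the perturbed lists. Its neighbours on chromosome 7 differed from it. Over its listed promoter, Ifitm2 had a region in every list, with 142 in control, 90.1 in depleted, 183 in H1 wild-type and 189 in H1 triple-knockout cells. Ifitm3 had none over its promoter but one past its end in every list, with 233, 205, 251 and 194 in the same order. Bst2, which tethers budding virus to the cell, had a region over its start in all 4 lists, with 167, 199, 146 and 148. Thus 3 of the 4 membrane factors had a gene-end region in every list.

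Xaf1, an interferon-induced binding partner of the apoptosis inhibitor XIAP, had a region over its start of 123 in control, 273 in H1 wild-type and 349 in H1 triple-knockout cells, and none in depleted cells. A region past its other end, shared with the end of Fbxo39, scored 69.2 in control and 90.3 in H1 wild-type cells. Isg20, an exonuclease that degrades viral RNA, had a region 919 bp before its annotated start in control cells (score 105) and 900 bp before it in H1 wild-type cells (65.4). That region does not reach the promoter window of Isg20. In depleted cells the nearest region to an end of Isg20 lay 1284 bp inside the gene (score 243). In H1 triple-knockout cells it lay 1475 bp inside the gene (126). Ifi27, a mitochondrial interferon-induced protein with no strand listed, had a region of 81.4 over its lower-coordinate end in control cells only. That region is also at an end of Ifi27l2a.

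Among transcription factors Irf7, the amplifier of type I interferon production, had a region of 70.7 in control cells only, inside the gene near its end and away from its promoter. The factors that act directly below the receptors kept theirs. Stat2 had a region over its start of 344 in control, 317 in depleted, 334 in H1 wild-type and 327 in H1 triple-knockout cells, which also lies at an end of Apof. Irf9, the DNA-binding partner of Stat2, had 194, 251, 240.2 and 211, shared with an end of Rnf31. Irf1, which drives antigen presentation genes, had 254, 475, 188 and 163. Its regions over the start were 506, 1082, 365 and 352 bp wide.

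Aim2, a sensor of DNA in the cytosol, is counted among the 10 through the upstream end of a long gene model, not through its listed promoter. At that end, control cells had regions of 335 and 141 (chr1:173348587-173349223 and chr1:173349963-173350219), H1 wild-type cells had 334 and 58.7 at the same places, and the perturbed lists had none. The regions at both places also overlap Cadm3. Over the listed Aim2 promoter (chr1:173420354-173420653) all 4 lists had a region, with 567 in control, 266 in depleted, 402 in H1 wild-type and 469 in H1 triple-knockout cells. Between 50 kb before and 50 kb after the gene model, control cells had 14 regions, 10 of them without a partner, and depleted cells had 4, all with a partner. Near other genes, 41.4% of control and 38.7% of depleted regions within 50 kb had no partner. In the H1 pair the stretch around Aim2 held 15 regions in wild-type cells, 6 of them without a partner. Triple-knockout cells had 10 there, 1 of them without a partner. Near other genes these shares were 27.1% and 30.4%.

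**Figure D2:**
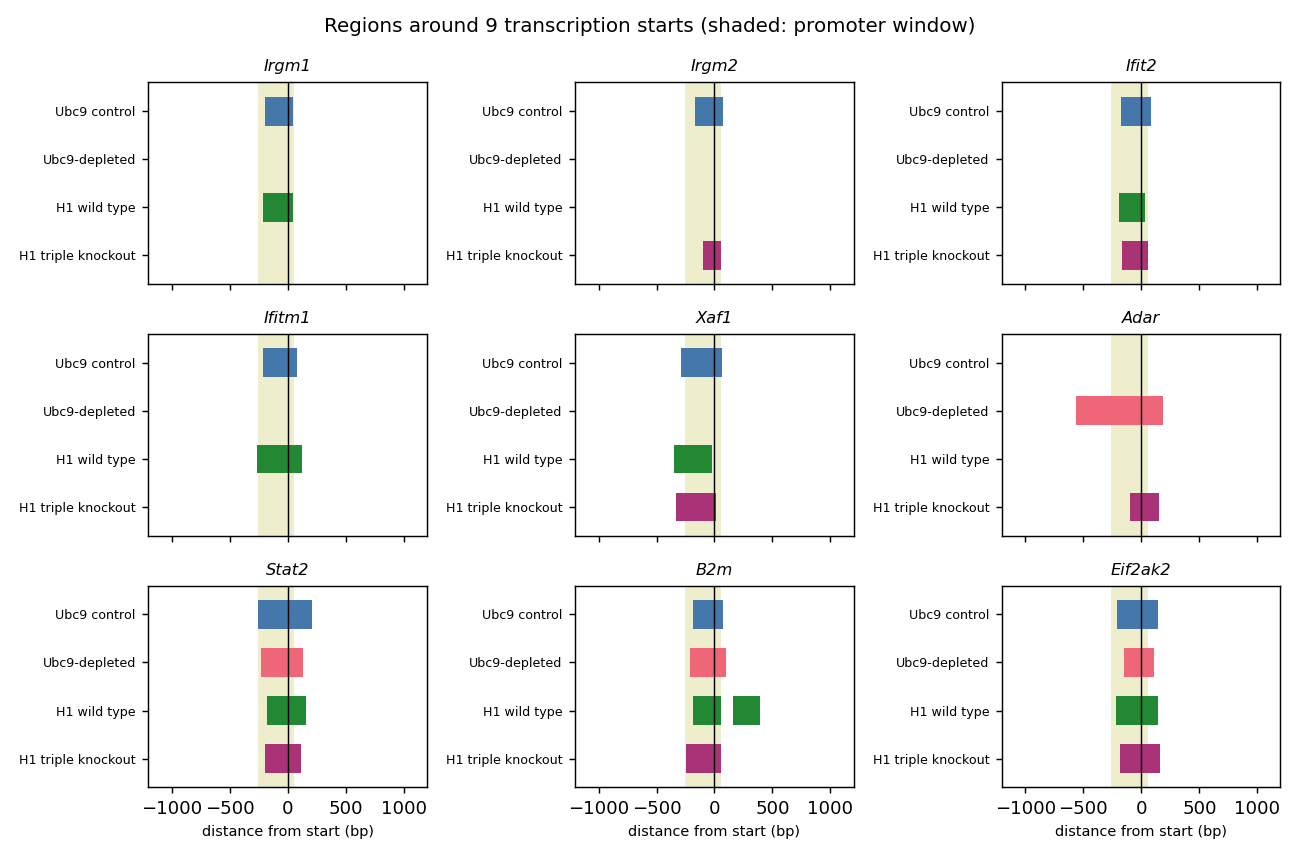
Regions of the 4 lists around the listed transcription start of 9 members; the x axis is the distance from the start in bp, positive along the gene, bars are regions and the shaded band is the promoter window. The Ubc9-depleted row is empty at Irgm1, Irgm2, Ifit2, Ifitm1 and Xaf1 and filled at Adar, Stat2, B2m and Eif2ak2; a piece of 1 bp at B2m in triple-knockout cells is too narrow to be seen.

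Of the 6 sensors and RNA-acting proteins among the members, 2 had a gene-end region in all 4 lists, Ifih1 and Eif2ak2, and Dhx58 had none in any. Ifih1, a sensor of long double-stranded RNA, had 78.8 in control, 74.2 in depleted, 218 in H1 wild-type and 144 in H1 triple-knockout cells. Eif2ak2, the kinase that stops translation on double-stranded RNA, had 298, 76.2, 369 and 223 in the same order, with the depleted region the lowest. B2m, the light chain of MHC class I, had 218, 72.5, 337 and 265. Zbp1, a sensor of Z-form nucleic acid, had a region 639 bp from an annotated end in control cells (122), and regions of 78.2 in depleted and 123 in H1 triple-knockout cells. Gbp3, a guanylate-binding GTPase, had a region inside the gene, 655 to 705 bp from its start and off its promoters, with 221, 133, 327 and 517. Trim25, a ubiquitin ligase of RNA sensing, had a region over its start with 111, 242, 141 and 102. With equal numbers of top-scoring regions taken from each list of the pair, B2m, Eif2ak2 and Gbp3 had a region in control cells only.

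Members with a region in perturbed cells only were Psmb8, Adar and Oas1a. Psmb8, a subunit of the immunoproteasome, had a region 351 bp before its start in depleted cells (76.7, chr17:34197607-34197844) and one at the same place in H1 triple-knockout cells (79.3). It also lies beyond the end of Tap1. The start shared by Psmb9, a second such subunit, and Tap1, a peptide transporter, was open in all 4 lists, with scores of 121 in control, 294 in depleted, 102 in H1 wild-type and 271 in H1 triple-knockout cells. Adar, the enzyme that edits adenosine in double-stranded RNA, had a region over its first start in depleted cells (67.0) and in H1 triple-knockout cells (68.9). A second triple-knockout region inside Adar near its other end scored 130.4. A promoter of Adar inside the gene had a region in all 4 lists, at 171, 125, 157 and 155 for control, depleted, wild-type and triple-knockout cells. Adar lies on chromosome 3, where the H1 pair had 1944 regions in triple-knockout cells only and 609 in wild-type cells only, and the part of this in the Adar difference was not tested. For Oas1a, an enzyme that activates RNase L, the depleted region (115) overlapped a control region (173) that ended 1028 bp from the gene, just outside the window, so that count arose at the window edge. The triple-knockout region of Oas1a (63.4) was a different one, 965 bp before the start at the opposite end, and overlapped no region of the other lists.

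The 1000 bp window also decided other members. At Isg15, the ubiquitin-like modifier, the nearest regions lay 1088 bp from an end in control, 1266 bp in depleted, 1426 bp in H1 wild-type and 1646 bp in H1 triple-knockout cells, so it counted as having none. At Parp14 regions lay between 1513 and 1554 bp from an end in all 4 lists. Just inside the window were the Ifitm2 region of depleted cells at 997 bp and the Oas1a region of triple-knockout cells at 965 bp. The 16 members with no gene-end region in any list were Igtp, Oas2, Oas3, Oasl1, Oasl2, Isg15, Ifit1, Ifit3, Rsad2, Mx2, Dhx58, Ifi35, Ifi44, Parp14, Cxcl10 and Rtp4. Their median distance to the nearest region was 8647 bp in control, 10169 bp in depleted, 13816 bp in H1 wild-type and 8854 bp in H1 triple-knockout cells. They include 4 of the 5 oligoadenylate synthetase genes and 2 of the 3 Ifit genes.

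The losses were then compared with other gene-end regions of like score, since low-scoring regions go missing more often everywhere. Member regions scored low, with a median of 122 in control cells against 195 for the other gene-end regions, and 33.3% of them scored below 100 against 17.6%. Of 27 control regions at member gene ends, 12 had no partner in depleted cells (44.4%, 25.5 to 64.7), against 11.7% of 10969 other gene-end regions. Had the member regions lacked a partner at the shares of other regions in the same score bands, 5.47 would have. By band, the count was 4 of 4 for scores of 50 to 75, where 53.3% of the others lacked a partner. It was 4 of 5 from 75 to 100 (34.6%), 3 of 8 from 100 to 150 (15.9%), 0 of 8 from 150 to 300 (4.13%), and 1 of 2 from 300 on (0.216%), the last being at the upstream end of Aim2. The reverse direction did not show this, since 2 of 18 depleted regions at member gene ends had no control partner (11.1%, 1.38 to 34.7), with 4.15 at the shares of like score and 11.9% of all others.

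**Figure D3:**
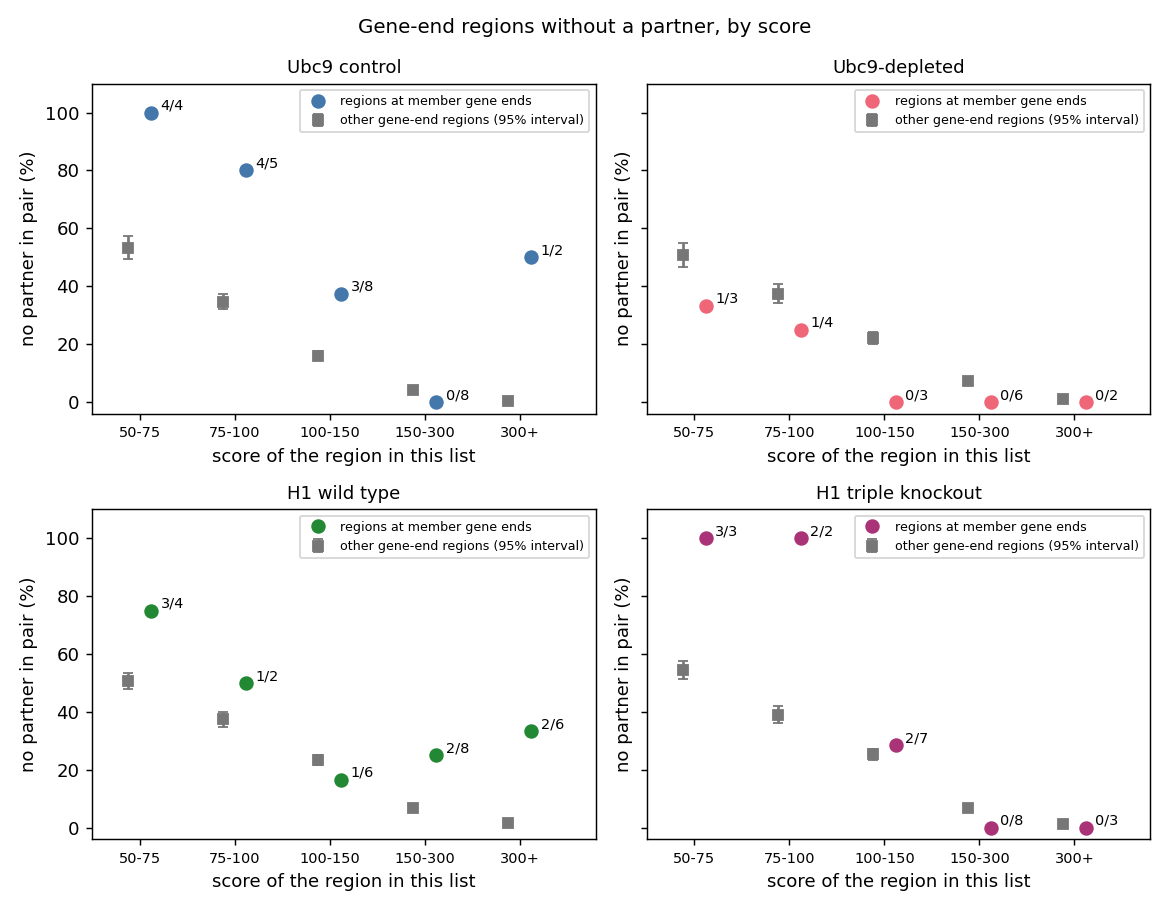
Percent of gene-end regions without a partner in the other list of the pair, by the region's own score, 1 panel per list; circles are regions at member gene ends with their counts, squares the other gene-end regions with exact 95% intervals. In the Ubc9 control panel the circles lie above the squares in 4 of 5 bands, and for Ubc9-depleted regions they lie under the squares in all 5. In the H1 wild-type panel they lie above in all bands but 100 to 150, and in the triple-knockout panel in the bands below 150.

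Of the 12 control regions at member gene ends without a depleted partner, 7 overlapped a region of H1 wild-type cells and none of triple-knockout cells (58.3%, 27.7 to 84.8). They lay at Isg20, Usp18, Irgm1, Ifitm1, both places of Aim2, and the far end of Xaf1. Among 1278 such regions of other genes this held for 17.8%. Only 2 overlapped regions of both H1 lists, at the starts of Ifit2 and Xaf1 (16.7%, 2.09 to 48.4), against 48.4% of the others. These comparisons were not matched for score, and the 12 regions had a median score of 88.9. The region at Irgm2 overlapped triple-knockout cells only, and those at Irf7 and Ifi27 overlapped neither.

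The H1 pair addresses what changes where linker histones are missing. The counts ran equally in both directions. Of 21 members with a wild-type gene-end region, 5 had none in triple-knockout cells (23.8%, 8.22 to 47.2), against 9.24% of all genes. Of 21 with a triple-knockout region, 5 had none in wild-type cells, namely Irgm2, Oas1a, Zbp1, Psmb8 and Adar, against 8.65% of all genes. At the level of regions, 9 of 26 wild-type regions had no partner (34.6%, 17.2 to 55.7; 4.83 at like score; 16% of other regions), and 7 of 23 triple-knockout regions (30.4%, 13.2 to 52.9; 4.79 at like score; 15.1%). Beside the regions at those members, the 9 held the far end of Xaf1, a region of 51.1 at Ifitm3, and a second B2m piece with the same score, 337, as the piece over the start. The 7 held a B2m piece of 1 bp. Without chromosomes 3, 6 and 8, where the balance of the pair is shifted, 4 of 17 members had a wild-type region only (8.8% of all genes) and 4 of 17 a triple-knockout region only (8.89%). Gbp2 had a region 621 bp inside the gene in triple-knockout (125) and 618 bp inside in wild-type cells (119) and none in either Ubc9 list.

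The surroundings of the members did not repeat the pattern of their gene ends. Within 50 kb of members, 59 of 176 control regions had no partner in depleted cells (33.5%, 26.6 to 41), against 41.4% of regions within 50 kb of other genes. Of 159 depleted regions there, 42 had no partner in control cells (26.4%, 19.7 to 34), against 38.7%. With regions at gene ends left out, the control share was 40 of 98 (40.8%, 31 to 51.2), against 53.4% (52.8 to 54) near other genes. In the H1 pair 21.8% of wild-type and 28% of triple-knockout regions within 50 kb had no partner, against 27.1% and 30.4%. The interval for the wild-type share ran from 16.1 to 28.4, and that for the triple-knockout share from 22 to 34.7.

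**Figure D4:**
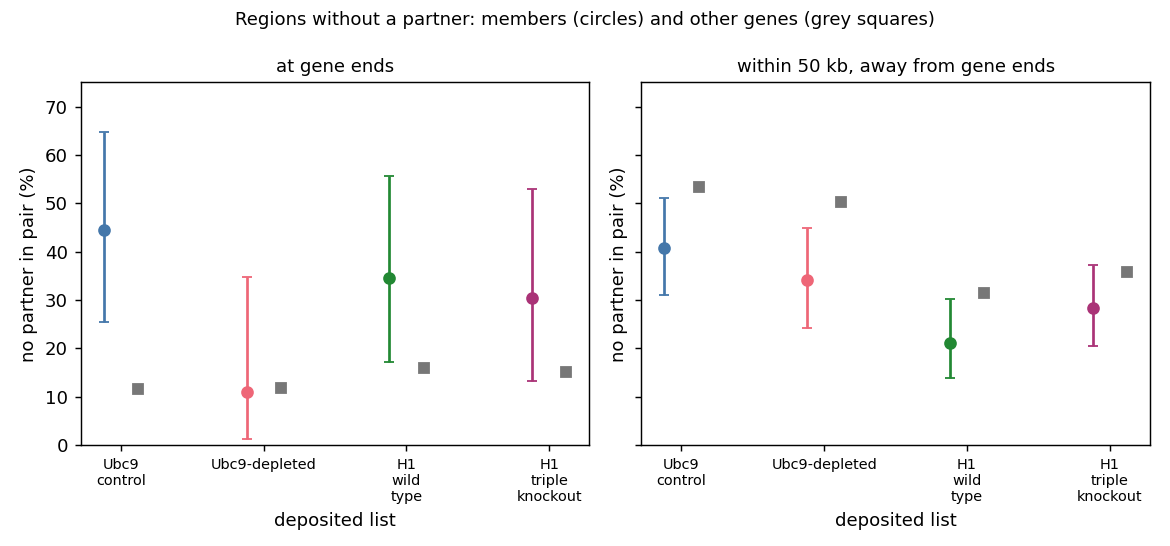
Percent of regions without a partner in the other list of the pair, at gene ends (left) and within 50 kb but away from gene ends (right), for the 4 lists; circles are members, grey squares other genes, and bars exact 95% intervals. At gene ends the Ubc9 control circle (44.4%) lies above its square (11.7%), and away from gene ends it lies below (40.8% against 53.4%).

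Promoter sequence was then set beside these losses, with a split chosen after the values were seen. The CpG ratio is the number of CG steps over that expected from the C and G content. Each gene was classed by the highest ratio among its listed promoters. Of member genes with a control region over any of these, 5 of 10 with a CpG ratio under 0.6 had none in depleted cells, namely Irgm1, Irgm2, Ifit2, Ifitm1 and Xaf1. None of the 8 classed at 0.6 or more did, which are Irf1, Adar, Stat2, Ifih1, B2m, Eif2ak2, Trim25 and Psmb9. The control region of Adar lies over a promoter with a ratio of 0.532, not over the one that sets its class (0.942), and the region of Psmb9 is also that of Tap1, a low-CpG promoter. Outside the list the shares were 20% (18.1 to 22) under 0.6 and 2.79% (2.42 to 3.19) from 0.6 on. By motif, 2 of 8 members with the ISRE letters and 3 of 10 without lost the region. Among other genes 11.8% with the ISRE letters (8.18 to 16.4) and 5.84% without (5.35 to 6.35) did. Within the low-CpG promoters of other genes, these became 20 of 62 (32.3%, 20.9 to 45.3) and 314 of 1610 (19.5%, 17.6 to 21.5). The intervals overlap between 20.9 and 21.5, and the difference was not tested.

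**Figure D5:**
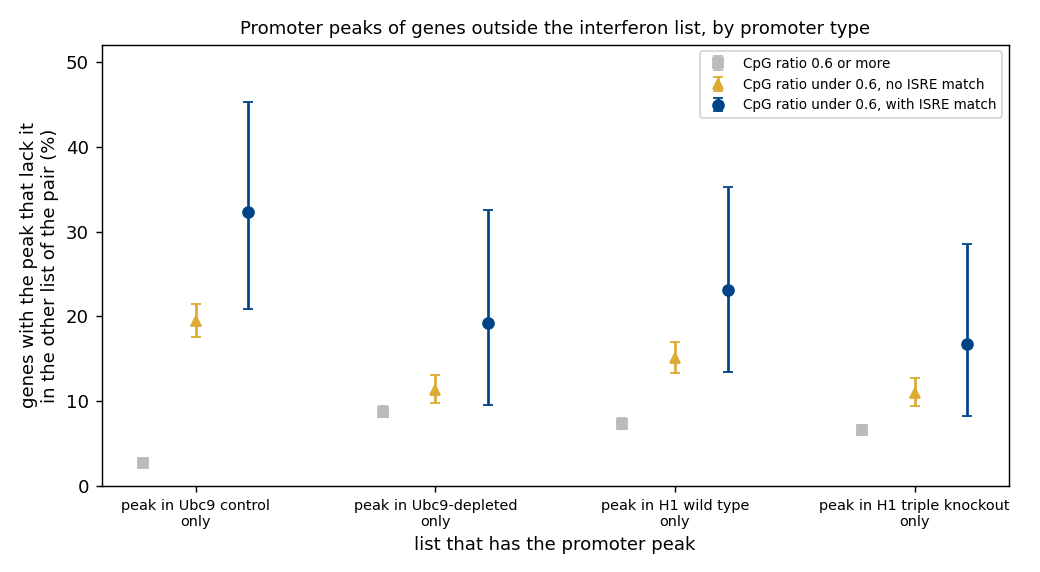
Percent of genes outside the interferon list that have a promoter region in 1 list and none in the other list of its pair, by promoter type; the x axis names the list that has the region, and bars are exact 95% intervals. For the Ubc9 control list the share was 2.79% at a CpG ratio of 0.6 or more, 19.5% below 0.6 without the ISRE letters and 32.3% below 0.6 with them.

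Other genes of the interferon pathway were read from a list of 52. In the Ubc9 pair, 7 of the 30 with a control region had none in depleted cells, beside 7.57% of all genes. They were Herc6 (115), an Isg15 ligase; Gbp7 (167), a GTPase; Trim30a (125) and Dtx3l (69.9), ubiquitin ligases; Ddx58 (87.5), the RNA sensor RIG-I; Ikbke (80.9), a kinase of that route; and Irf2 (62.5), a repressor of interferon genes. In the other direction 3 of 26 had a depleted region only, at Irf8 (143), H2-K1 (88.1) and Ifnlr1 (64.7), beside 9.73% of all genes. A region in all 4 lists was found at 17 of the 52, beside 43% of all genes. These were 6 of 9 receptors and kinases, 4 of 4 inhibitors, and 1 of 20 other interferon-stimulated genes, with the rest among factors and signalling genes. Ifnar1, Ifnar2, Ifngr1, Jak1, Jak2 and Tyk2 had a gene-end region in all 4 lists, as did the inhibitors Socs1, Socs3, Ptpn2 and Pias1. Of the 5 interferon genes listed, 4 had no region in any list, and Ifne had one in triple-knockout cells only (110).

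In the H1 pair, 5 of 28 pathway genes with a wild-type region lacked one in triple-knockout cells, beside 9.24% of all genes. These were Cmpk2 (166), Herc6 (129), Ddx60 (128), Il10rb (115) and Irf2 (83.9). Ddx60 and Irf2 lie on chromosome 8, where 561 regions were in triple-knockout and 1453 in wild-type cells only. The reverse held for 4 of 27, namely Ifngr2 (123), Samhd1 (115), Ifne (110) and Traf3 (83.4), beside 8.65%. Of the 52, Herc6 and Irf2 thus had a region in both control lists and neither perturbed list, beside 0.658% of all genes. Among the members this held for Isg20, Usp18, Irgm1, Aim2 and Ifitm1. No gene of the 52 had a region in both perturbed lists only, beside 0.676% of all genes. Whether the control regions of Herc6 and Irf2 lie at the same place in both pairs is not given here.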

How the data were processed

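ATAC-seq libraries of 8 samples in 4 groups were processed by the authors into 1 list of regions per group, from both replicates, per the labels. Per the submitters' processing notes, this used MACS 1.4.2-1, Picard, Bowtie2 and CASAVA 1.8.2 on mm10. Settings, any read shift for the transposase and the handling of replicates are not given in the sources used here. The authors deposited a score per region, read here as the caller's, with a lowest value of 50. Read depth is unknown. Groups came from sample titles. Gene-end windows of 1000 bp and the overlap of at least 1 bp were applied in Python 3.11.15, with exact 95% intervals from SciPy 1.17.1. Other gene-end regions were compared in score bands from 50, 75, 100, 150 and 300. The overlap step was checked on simulated data. The members and lists were chosen with earlier results of these data known. Members with a gene-end region in 1 list only of a pair or in all 4 lists are given with values, and the others by count. For the alternative with equal numbers, only the 23423 top-scoring regions of each Ubc9 list and the 27744 of each H1 list were kept. Alternatives were other windows, score minimums, equal numbers of top-scoring regions, partner overlap, bands, chromosomes left out and H1 pieces merged. The last 2, and the alternatives for regions of the perturbed lists at member gene ends and within 50 kb, were chosen after seeing the data, as was the CpG split.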

Additional observations from a re-analysis of the deposited data

Results flagged for a closer look

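Irgm2 differed in opposite directions in the 2 pairs, with a gene-end region in Ubc9 control cells (score 59.2) and none in depleted cells, but one in H1 triple-knockout cells (56.6) and none in wild-type cells. The difference between the pairs was not tested.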

How the results depend on the processing

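No paired analysis was possible because each group has 1 list made from both replicates, and for the same reason no replicate could be left out. The 10 of 24 members with a region in Ubc9 control cells only were 41.7%, beside 7.57% of all genes. They became 6 of 20 with transcription starts only (30%, beside 6.58%). When that region had to score 100 or more, 3 of 16 were left (Isg20, Aim2 and Xaf1, 18.8%, beside 3.63%). Equal numbers of top-scoring regions (23423 kept per list) gave 4 of 10 (40%, beside 9.75%), namely Aim2, Gbp3, B2m and Eif2ak2. Of these, 1 (Aim2) was among the 10. With windows of 500 and 2500 bp there were 8 of 20 (beside 7.19%) and 8 of 28 (beside 8.53%). Without chromosomes 19, X and Y there were 9 of 23 (beside 7.46%). The 3 of 17 members with a depleted region only became 1 of 15 with transcription starts only (beside 8.6% of all genes). With scores from 100 on there was 1 of 11 (beside 6.3%). Equal numbers gave 3 of 9 (beside 16.1%), with 0 of the same members. The 5 of 21 with a wild-type region only became 3 of 24 with a window of 2500 bp (beside 8.45% of all genes). There were 3 of 20 with transcription starts only (beside 8.14%) and 3 of 14 with equal numbers (beside 11.9%). The 5 of 21 with a triple-knockout region only became 3 of 17 with a window of 500 bp (beside 8.64% of all genes). There were 3 of 20 with transcription starts only (beside 7.23%) and 2 of 18 with scores from 100 on (beside 4.78%). Equal numbers gave 3 of 14 (beside 11.2%), with 0 of the same members. Depleted regions at member gene ends without a partner went from 2 of 18 to 4 of 25 with a window of 2500 bp (beside 15.2% of other regions). Triple-knockout regions went from 7 of 23 to 4 of 17 with 500 bp (beside 12.8%). The 12 in control cells ranged from 9 to 13, with 3.25 to 8.58 at the shares of like score. With scores from 100 on, the shares within 50 kb without a partner were 20.8% in control, 14% in depleted, 13.7% in wild-type and 15.1% in triple-knockout cells, against 27.3%, 29.6%, 15.9% and 18.9% near other genes. Counting pieces of a named peak once gave 8 of 25 wild-type and 7 of 23 triple-knockout regions. Of the 5 members in both control lists only, all but Isg20 remained with a window of 500 bp. Irgm1, Aim2 and Ifitm1 did with 2500 bp, and Isg20, Irgm1 and Ifitm1 with transcription starts only. Scores from 100 on and equal numbers each left Aim2. Of the 3 in both perturbed lists only, Psmb8 and Adar remained with either window and Psmb8 with transcription starts only. Scores from 100 on left none, and equal numbers gave Psmb9 and Tap1. Shares of all genes are not given here. The cause of these shifts was not tested. Of the 27 control regions at member gene ends 9 score under 100, and the unknown depth limits what such regions show.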

Other observations

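Beyond the gene ends, the stretch around Psmb8, Psmb9 and Tap1 on chromosome 17, within 50 kb of Tap1, held 6 regions in Ubc9-depleted cells and 1 in control cells. Of the 6, 4 lay past Psmb8 between chr17:34219243-34219669 and chr17:34232479-34232914, outside protein-coding genes, with scores of 71.1, 271, 234 and 174, and neither the control nor an H1 list had a region there.

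Near B2m, control cells had regions of 116 and 162 at Trim69, a ubiquitin ligase gene downstream of it, that had no partner in depleted cells. Both H1 lists had regions at these places, with 152 and 212 in wild-type and 112 and 147 in triple-knockout cells.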
